A study of Mus musculus with 28 samples.

Results

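Long stretches of H3K27ac were examined in mouse lung tumours. A region was kept where the bases covered by a peak in both RAS H3K27ac lists (replicates 3 and 4), with gaps of up to 1 kb closed, spanned 15000 bp or more on chromosomes 1 to 19. This gave 601 long domains out of 26029 H3K27ac regions built in the same way, and the other 25428 regions served as the shorter class. The long domains held 13.7 Mb, which was 15.2% of the bases in all regions. Because the members were chosen by their H3K27ac coverage in the RAS lists, that coverage is given as a description with no test.

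Acetylation of histone H3 at lysine 27 is a mark of active enhancers and promoters. Long or dense stretches of it are known as super-enhancers, which commonly lie near genes that define a cell type or drive a tumour. H3K4me1 marks enhancers, and Mll4 (also called Kmt2d) is a methyltransferase that deposits it there. H3K4me3 marks promoters, H3K79me2 lies along the bodies of transcribed genes, H3K27me3 is laid down by Polycomb, and H3K9me3 marks heterochromatin.

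Lung tumours arose after treatment with Ad-CMV-Cre, an adenovirus that expresses Cre from a promoter not restricted to 1 cell type, in K-RasLSL-G12D mice and in K-RasLSL-G12D;Mll4fl/fl mice. All tumours thus carried the Cre-activated mutant K-Ras allele, and Mll4 was floxed in 1 of the genotypes. Chromatin immunoprecipitation followed by sequencing (ChIP-seq) was run on tumour tissue for 6 marks with 4 libraries each, beside 4 input samples that were not analysed here. The sample labels do not give the genotype of a library. The names of the deposited lists place replicates 1 and 2 of every mark under MLL and replicates 3 and 4 under RAS, and reading MLL as the Mll4-floxed genotype rests on those names alone. Loss of Mll4 itself could not be checked in peak lists. Neither the age of the mice nor pooling of tumours is stated in the labels, and no source says that the 2 tumours of a kind came from separate mice. The tissue was whole tumour, so the share of cancer, stromal and immune cells in each library is unknown. Whether less of a mark reflects fewer cells of a type or less of it per cell cannot be told apart.

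The measure used throughout is the covered share, the percentage of a region's bases that lie under a peak of a list. The lists hold no read counts, so depth is unknown. H3K27ac described as left or kept under MLL is the covered share in the MLL lists, not a fraction of signal. Median peak width on chromosomes 1 to 19 was 234 and 216 bp in the MLL H3K27ac lists (replicates 1 and 2) but 2064 and 1713 bp in the RAS lists (replicates 3 and 4), and the 4 lists covered 19.9, 22.1, 114.5 and 112.4 Mb. H3K4me1 lists covered 15.5 and 24.9 Mb under MLL against 46.8 and 55.6 Mb under RAS. Among libraries that stood apart, H3K4me3 replicate 1 had 3.12 Mb covered against 26.4 to 32.3 Mb in the others. H3K27me3 replicate 3 had 102.3 Mb against 10.8 to 32.4 Mb. H3K9me3 replicate 4 also stood apart, as did H3K27ac replicate 2, whose coverage of the long domains followed H3K79me2. Values are therefore given list by list.

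The domains had a median length of 20006 bp, with the middle 50% between 17016 and 25155 bp and the longest at 76083 bp. Of these domains, 300 were 15 to 20 kb long, 210 were 20 to 30 kb and 91 were 30 kb or longer. A single unbroken block of bases covered in both RAS lists made up 82 of them (13.6%, against 75.6% of all regions), and the median domain joined 3 blocks, against 1 for all regions. The covered share in the RAS lists, which the rule fixes, had a median of 98.9% in replicate 3 and 98.8% in replicate 4, and the lowest values were 84.1% and 83.6%.

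Chromosome 8 held 57 of the domains, 3.97% of its 1436 H3K27ac regions, and chromosome 2 held 56, or 2.73% of 2052. The lowest share was on chromosome 10, with 19 domains among 1323 regions (1.44%). Positions are given in mm9, the build named in the submitters' processing notes, and were not annotated with genes because no annotation of that build was used.

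**Figure D1:**
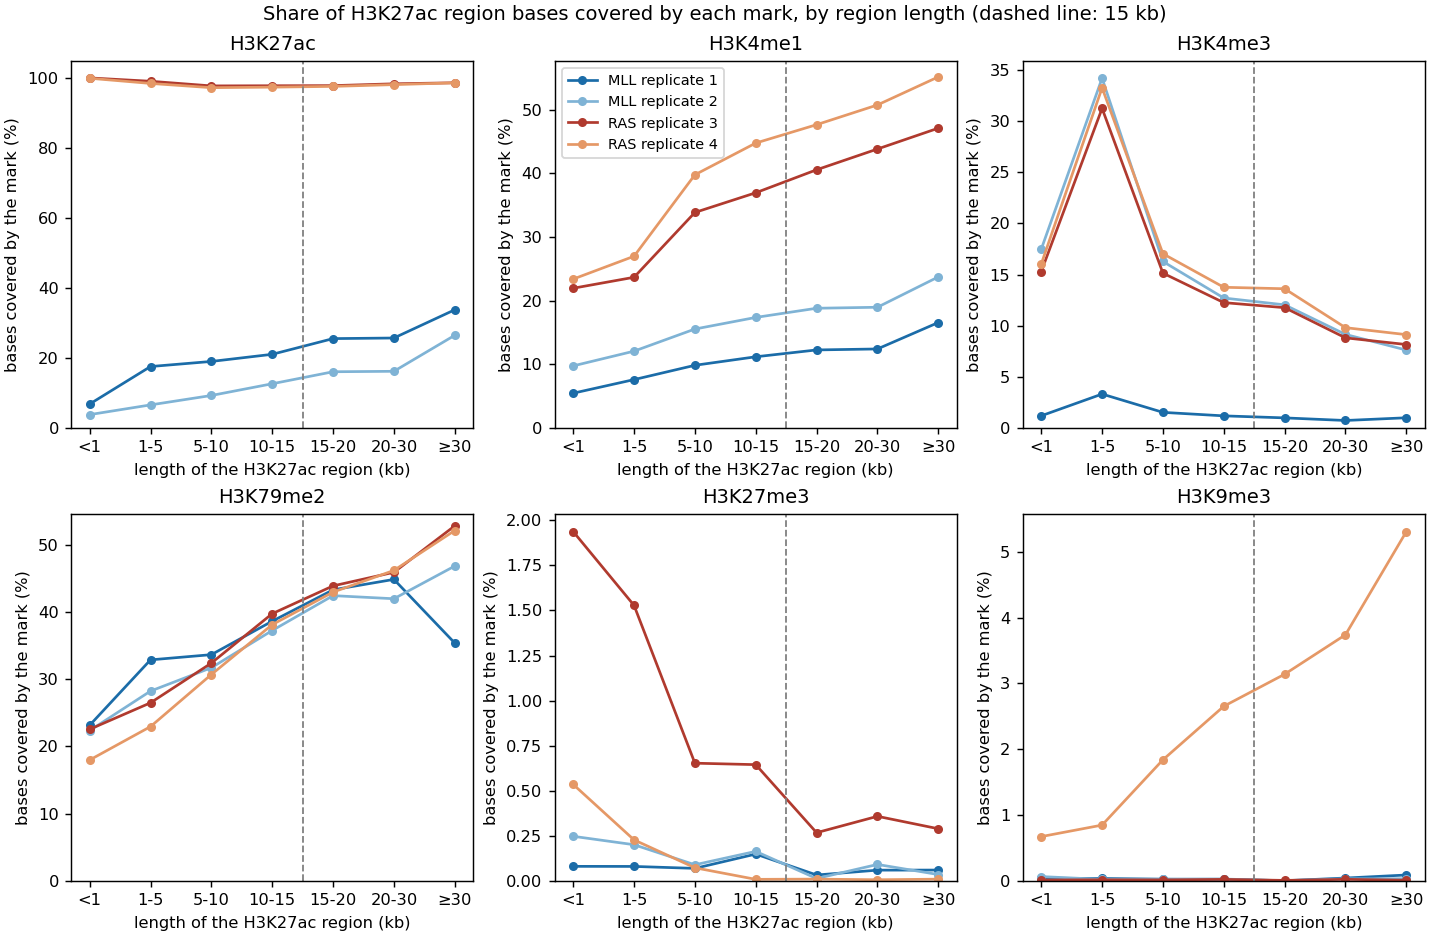
Share of H3K27ac region bases covered by each mark (y axis, percent) against region length (x axis, kb), 1 line per list, with MLL in blue and RAS in red and orange. H3K4me1 is higher at 30 kb or longer than at 1 to 5 kb in all 4 lists, H3K79me2 replicate 1 drops to 35.4% above 30 kb, and H3K9me3 is well above 0 in replicate 4 alone.

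H3K4me1 covered more of the long domains than of shorter regions in every list, and much more in the RAS lists than in the MLL lists. In the long domains it covered 13.4% of bases in replicate 1, 20.1% in replicate 2, 43.5% in replicate 3 and 50.8% in replicate 4. In shorter regions the same lists gave 8.59%, 13.6%, 28.2% and 32.8%. The RAS and MLL values did not overlap in either class. The mean difference between long and shorter regions was 11.1 ± 6.44 percentage points (SD, n = 4), positive in 4 of 4 libraries. The exact two-sided sign-flip p was 0.125, the smallest that 4 libraries allow, and 0.156 after Benjamini-Hochberg adjustment over 5 marks. The difference was 6.33 points against shorter regions of at least 5 kb, and 2.84 points when RAS blocks were joined over the stitching distance common in super-enhancer work.

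The increase with length ran across the shorter classes as well as the long domains. In RAS replicate 4, H3K4me1 covered 26.97% of bases in regions of 1 to 5 kb, 44.8% at 10 to 15 kb, 47.7% at 15 to 20 kb and 55.2% at 30 kb or longer. MLL replicate 1 went from 7.56% to 11.1%, 12.2% and 16.5% over the same lengths.

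The domains were chosen for H3K27ac in the RAS lists, and H3K4me1 is a companion mark at enhancers, so no comparison of RAS with MLL in them is free of that choice. Between tumours, the mean H3K4me1 share of the long domains was 47.1% ± 5.16 (SD, n = 2) in the RAS lists and 16.8% ± 4.75 (SD, n = 2) in the MLL lists. The difference of 30.3 points exceeded the spread within each pair, and it was 15.6 points with the wider joining. With 2 libraries against 2, the exact two-sided permutation p was 0.33, the smallest possible, and 0.833 after adjustment over 5 marks. The ratio of RAS to MLL was 2.81 in long domains, 2.75 in shorter regions and 2.53 over the whole lists. The RAS-minus-MLL gap was 10.9 points wider in long than in shorter regions (exact permutation p 0.33, adjusted 0.556), while the ratios of the classes were close. This excess was 5.42 points against shorter regions of at least 5 kb and 3.62 points with the wider joining. Total coverage of the H3K4me1 lists moved with the tumours in the same direction, and its part in the result was not tested.

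Domain by domain, the H3K4me1 share was higher in both RAS lists than in both MLL lists in 580 of 601 domains (96.5%, against 42.5% of all regions) and lower in 0 (against 3.27%). Many shorter regions hold no H3K4me1 peak in a list. Regions of 10 to 15 kb, the class nearest in length, gave 90.4%. All 4 lists had H3K4me1 in 512 domains (85.2%, against 28.1% of all regions), and 21 domains (3.49%, against 12.7%) had it in both RAS lists and in neither MLL list. These shares were 69.6% and 9.61% in regions of 10 to 15 kb. A longer region has more room for a peak, so counts of touched regions rise with length.

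The order of the domains by H3K4me1 was similar across lists. Spearman's rho over the 601 domains was 0.913 between MLL replicates 1 and 2, 0.738 between RAS replicates 3 and 4, and 0.722 between the RAS and MLL means. These are descriptions over domains that share libraries.

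**Figure D2:**
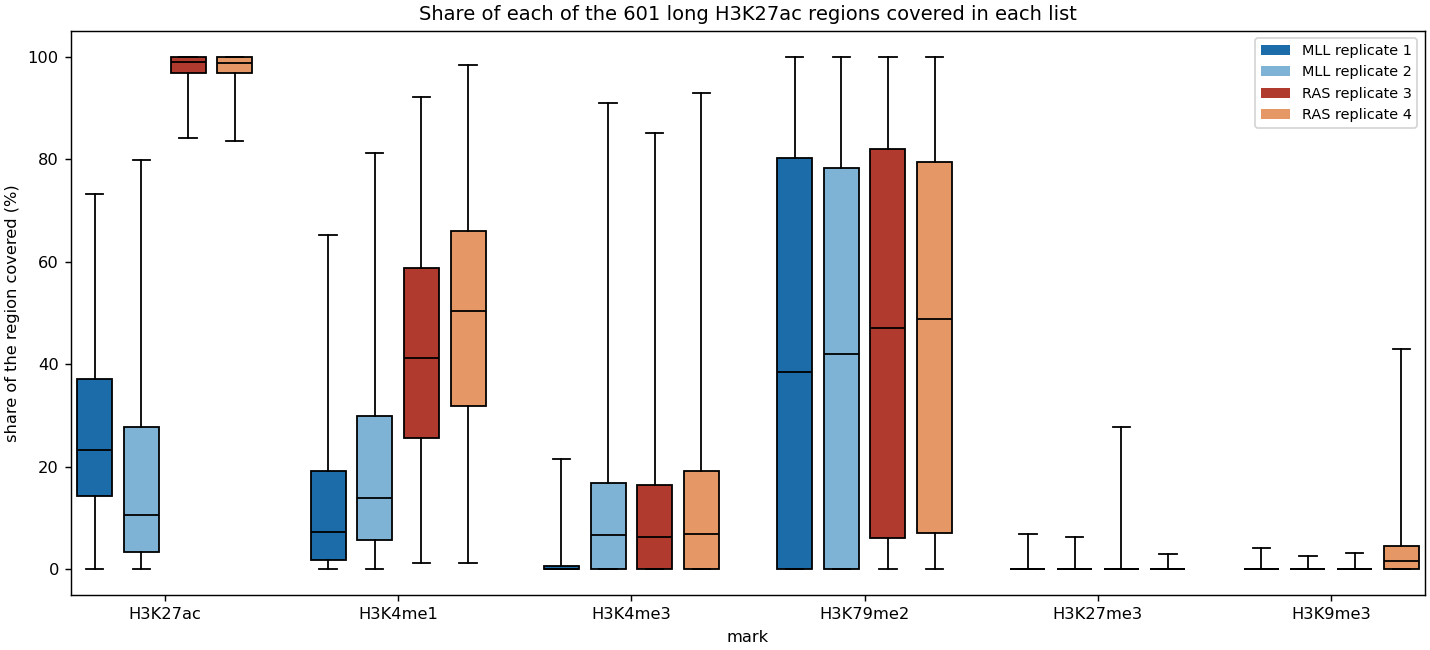
Share of each of the 601 long domains covered in each list (y axis, percent), grouped by mark on the x axis. Boxes span the middle 50% of domains with the median line, and whiskers reach the lowest and highest domain. H3K4me1 boxes are higher in the RAS lists, with medians of 41.3% and 50.4% against 7.24% and 14.0% under MLL.

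H3K27ac was still detected in nearly all long domains in the MLL lists, but in most it covered a minor part of the bases, with medians of 23.2% in replicate 1 and 10.6% in replicate 2. MLL replicate 1 had a peak in 599 domains (99.7%, against 59.9% of all regions and 95.7% of those of 10 to 15 kb). MLL replicate 2 had one in 542 (90.2%, against 31.4% and 71.2%). The covered share of all domain bases was 27.7% in replicate 1 and 18.7% in replicate 2, a mean of 23.2% ± 6.30 (SD, n = 2). The domains were chosen for high coverage in the RAS lists, so a lower value in the other lists follows in part from the choice. The MLL peaks were also narrower, and the part of peak width was not tested. With peaks less than 1 kb apart joined, the mean was 35.2%. It was 10.02% for domains built with the wider joining and 16.8% for those built from bases in at least 1 RAS list.

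More was left in long than in shorter regions in both MLL lists. Shorter regions kept 17.9% in replicate 1 and 7.95% in replicate 2, so the long domains were higher by 9.71 and 10.8 points. With 2 libraries, the smallest sign-flip p is 0.5, and no test was made. Regions of 10 to 15 kb kept 21.0% and 12.54%, and domains of 30 kb or longer kept 33.7% and 26.4%. Joining the RAS blocks over that stitching distance, in place of 1 kb, gave 3099 long regions, and the mean gain over shorter regions was then 0.350 points.

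Both MLL lists had H3K27ac in 541 long domains (90.02%), against 26.8% of all regions and 70.4% of those of 10 to 15 kb. Coverage of 10% or more in both MLL lists was found in 286 domains (47.6%, against 16.2% of all regions and 33.6% of those of 10 to 15 kb). Only 6 domains were covered to 50% or more in both (0.998%, against 0.442% and 0.739%). A peak in replicate 1 but not replicate 2 was found in 58 domains (9.65%, against 33.1% and 25.2%). The reverse was found in 1 domain (0.166%, against 4.52% and 0.739%). Peaks were also denser: replicate 1 had 6.94 peaks per 10 kb of long domain against 5.30 in shorter regions, and replicate 2 had 4.96 against 2.64. Ranked by the authors' peak score within each list, 14.9% of the replicate 1 peaks in long domains were in the list's top 10%, against 11.4% of its peaks in shorter regions. For replicate 2 these values were 17.5% and 11.4%.

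The same construction applied to the MLL lists gave 8590 regions, of which 1 reached 15 kb, at 15556 bp, and it touched a long domain. Of the 91 MLL regions of 5 kb or longer, 64 touched a long domain (70.3%), against 19.9% of all 8590 MLL regions. A longer region also has more chance to touch one. Taken singly and with gaps closed, the lists had 22 and 192 regions of 15 kb or longer in MLL replicates 1 and 2, against 846 and 987 in RAS replicates 3 and 4.

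**Figure D3:**
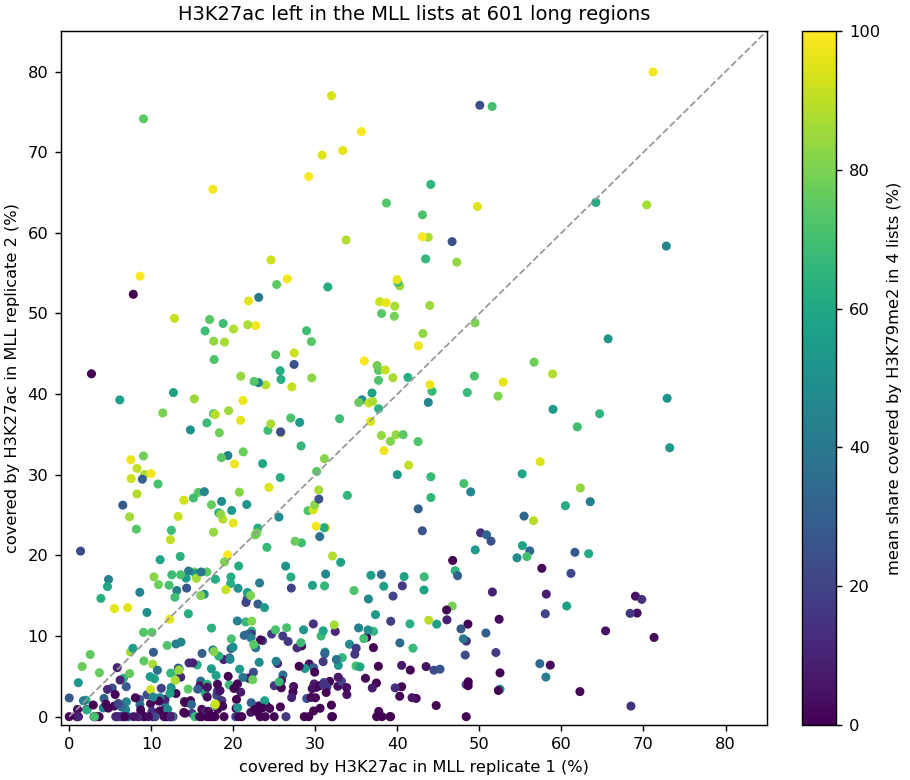
Share of each long domain covered by H3K27ac in MLL replicate 1 (x axis, percent) and in MLL replicate 2 (y axis, percent), 1 point per domain, coloured by the mean H3K79me2 share over 4 lists. Domains with little H3K79me2 lie along the bottom, where replicate 2 has little H3K27ac at any level of replicate 1.

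The amount of H3K27ac left per domain differed between the MLL replicates. Spearman's rho between them over the 601 domains was 0.388. The share in replicate 2 followed the mean H3K79me2 share (rho 0.721), whereas that in replicate 1 did not (rho 0.0699). In the 83 domains with no H3K79me2 peak in any list, replicate 1 covered 23.1% of bases and replicate 2 covered 3.05%. In the 290 domains with a mean H3K79me2 share of 50% or more, the values were 28.3% and 29.2%. What is left in the long domains therefore depends on which MLL library is read. There, replicate 1 kept a similar share with and without H3K79me2, and replicate 2 kept most where H3K79me2 lay. In shorter regions both replicates rose with H3K79me2. Replicate 1 covered 11.7% of those with none and 23.1% of those with a mean share of 50% or more. The values of replicate 2 were 0.817% and 19.4%.

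The domain with most H3K27ac left was chr7:71039299-71075766 (36468 bp), covered to 71.2% in MLL replicate 1 and 79.9% in replicate 2. H3K79me2 covered 95.0% to 100% of it over the 4 lists, and H3K4me1 covered 53.5%, 57.4%, 76.4% and 78.0% in replicates 1 to 4. The next 4 were chr7:132693181-132710051 (70.4% and 63.5%), chr7:139990005-140006525 (72.8% and 58.4%), chr3:87940001-87955652 (64.2% and 63.8%) and chr14:41758756-41782122 (51.6% and 75.7%). In all 5, H3K4me1 covered more than 50% of the domain in each of the 4 lists.

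At the other end, chr7:151785971-151808130 (22160 bp) was the only domain with no H3K27ac peak in either MLL list (1 of 601, against 35.6% of all regions). H3K4me1 there was 0% and 1.37% in MLL replicates 1 and 2 but 29.1% and 48.3% in RAS replicates 3 and 4, and H3K79me2 and H3K4me3 had no peak in it. The next 4 were chr1:76012957-76030162, chr18:57995468-58012380, chr11:72826125-72841930 and chr2:118487906-118508591, with at most 1.13% covered by H3K27ac in replicate 1 and at most 0.889% in replicate 2. Their H3K4me1 share was at most 5.83% in the MLL lists. In the RAS lists it ranged from 4.65% to 79.1% over these 4 domains, so those with little H3K27ac left differed widely in RAS H3K4me1. At chr1:76012957-76030162 it was low in every list, with no peak under MLL and 11.4% and 4.65% under RAS.

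H3K79me2 covered more of the long domains than of shorter regions in every list. It covered 41.8%, 43.4%, 47.0% and 46.5% of domain bases in replicates 1 to 4, against 33.5%, 30.2%, 29.8% and 26.9% in shorter regions. The differences were 8.30 and 13.25 points in MLL replicates 1 and 2 and 17.2 and 19.6 points in RAS replicates 3 and 4, with no overlap. The mean difference was 14.6 ± 4.94 points (SD, n = 4), positive in 4 of 4 libraries (exact sign-flip p 0.125, the smallest possible, adjusted 0.156). It was 8.32 points with the wider joining. RAS exceeded MLL by 4.14 points in long domains (46.8% ± 0.304 against 42.6% ± 1.15, SD, n = 2 each), whereas in shorter regions RAS was the lower by 3.49 points (28.4% against 31.8%). In long domains the gap was 1.18 points with equal numbers of best-scored peaks, 0.883 points with the wider joining and 7.76 points with peaks under the median score dropped, so its size depended on the setting. The change in the gap from shorter to long regions, 7.62 points, had an exact permutation p of 0.33, the smallest possible (adjusted 0.556), and was 4.61 points against shorter regions of at least 5 kb.

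The pooled gap between tumours was not shared by most domains. H3K79me2 was higher in both RAS lists than in both MLL lists in 71 domains (11.8%, against 3.07% of all regions) and lower in 170 (28.3%, against 20.5%). In regions of 10 to 15 kb these shares were 8.62% and 26.8%. The higher mean of the RAS lists thus came with more domains on the lower side.

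The domains varied widely in H3K79me2. Its mean share over the 4 lists was 50% or more in 290 domains (48.3%, against 28.6% of all regions), above 0 but under 50% in 228 (37.9%, against 23.6%) and 0 in 83. All 4 lists had a peak in 386 domains (64.2%, against 31.3% of all regions), and 83 had none in any list (13.8%, against 47.8%). Of regions of 10 to 15 kb, 39.5% had a mean share of 50% or more. All 4 lists had a peak in 52.3% of them, and none did in 26.2%. H3K4me1 followed H3K79me2. In the 290 domains with a mean H3K79me2 share of 50% or more, H3K4me1 covered 20.3%, 29.8%, 56.0% and 61.0% in replicates 1 to 4. In the 83 domains free of H3K79me2 it covered 4.12%, 6.69%, 24.3% and 37.3%. RAS stayed above MLL in both sets.

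In 30 long domains, H3K79me2 was under 10% in MLL replicate 1 and 50% or more in each of the other 3 lists, a set chosen after its values were seen. This was 4.99% of the domains, against 1.92% of all regions and 3.57% of those of 10 to 15 kb. For the other lists, the same pattern was found in 8 domains for replicate 2 (1.33%, against 0.957% of all regions), 1 for replicate 3 (0.166%, against 0.204%) and 1 for replicate 4 (0.166%, against 1.14%). The reverse, 50% or more in 1 list and under 10% in the other 3, was found in 2 domains for replicate 1 (against 1.52% of all regions), 0 for replicate 2 (0.269%), 1 for replicate 3 (0.292%) and 4 for replicate 4 (0.38%). In 27 of the 30, replicate 1 had no H3K79me2 peak at all, and over the set H3K79me2 covered 0.594%, 92.0%, 91.3% and 89.5% in replicates 1 to 4. H3K27ac and H3K4me1 of the same replicate number were present there: H3K27ac replicate 1 covered 29.9% and H3K4me1 replicate 1 covered 27.9% of these bases. Of the 30, 10 were among the 91 domains of 30 kb or longer. In those 91, H3K79me2 replicate 1 covered 35.4%, against 46.9%, 52.8% and 52.1% in replicates 2 to 4. Without those 10, whose choice fixes the direction of the move, the values in replicates 1 to 4 were 40.2%, 40.5%, 47.4% and 46.6%.

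H3K4me3 took up a small part of the long domains, smaller than in shorter regions in every list. It covered 0.867%, 9.83%, 9.74% and 11.1% in replicates 1 to 4, against 2.42%, 25.7%, 23.6% and 25.5% in shorter regions. The mean difference was -11.4 ± 6.64 points (SD, n = 4), negative in 4 of 4 libraries (exact sign-flip p 0.125, adjusted 0.156). Regions of 10 to 15 kb held 1.15%, 12.7%, 12.2% and 13.8%, close to the long domains, and against shorter regions of at least 5 kb the difference was -3.84 points. Without replicate 1, whose list covers little of the genome, it was -14.7. RAS minus MLL in long domains was 5.05 points (exact permutation p 0.667, adjusted 1), and without replicate 1 it was 0.572. The share was higher in both RAS lists than in both MLL lists in 125 domains (20.8%, against 5.22% of all regions) and lower in 0 (against 0.0192%). It was higher in 12.7% of regions of 10 to 15 kb. A lower call needs a peak in replicate 1, which had one in only 161 domains (26.8%). The higher call thus compared RAS mostly with replicate 2.

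A promoter mark was nevertheless present in many domains. H3K4me3 was found in all of replicates 2, 3 and 4 in 317 domains (52.7%, against 36.9% of all regions), and in none of the 4 lists in 227 (37.8%, against 58.4%). For regions of 10 to 15 kb the shares were 39.5% and 51.0%. The label of super-enhancer-like domains therefore covers a mixed set, and the lists hold no signal by which super-enhancers are usually ranked. Domains with H3K4me3 had more H3K27ac left, at 29.7% and 24.5% in MLL replicates 1 and 2, than domains without it, at 24.4% and 10.8%. They also had more H3K79me2, at 54.2% to 58.3% over the 4 lists against 25.7% to 30.6%. Domains without H3K4me3 but with a mean H3K79me2 share of 50% or more had 21.4% and 22.3% left. Shorter regions kept 28.0% and 13.1% with H3K4me3 and 10.9% and 4.61% without it. The parts of H3K4me3 and H3K79me2 in this were not tested. Neither H3K4me3 nor H3K79me2 was present in 76 domains (12.6%, against 37.9% of all regions and 23.6% of those of 10 to 15 kb). H3K4me1 in these 76 was 4.01%, 6.46%, 24.4% and 37.4% in replicates 1 to 4.

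**Figure D4:**
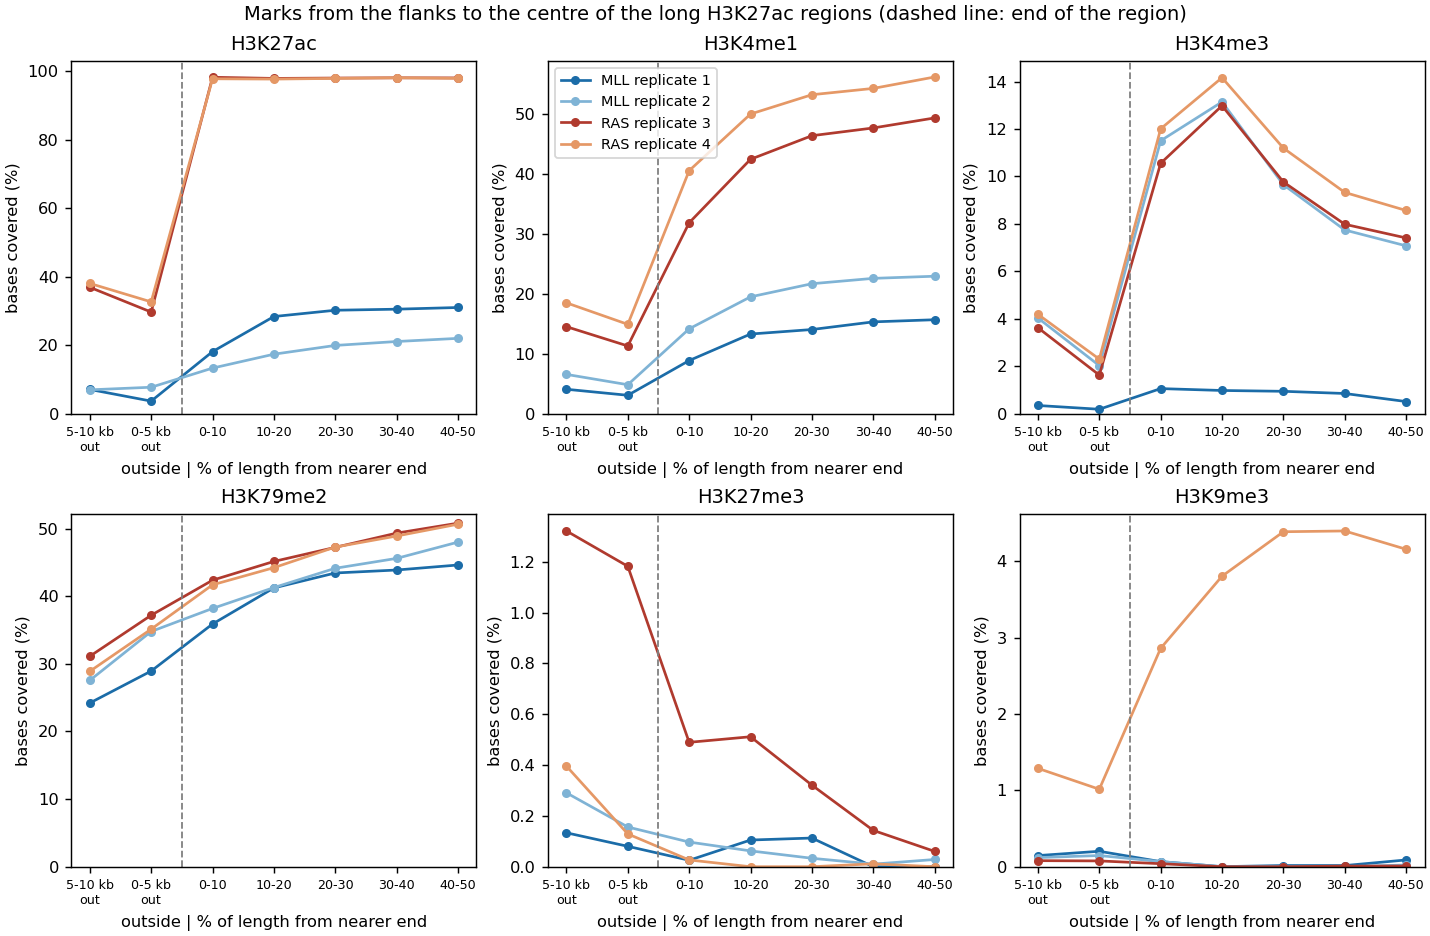
Bases covered by each mark (y axis, percent) outside and inside the long domains, from 5 to 10 kb outside the end to the centre (x axis), with both ends combined and 1 line per list. H3K4me1 rises toward the centre in all 4 lists, and H3K4me3 is highest between 10% and 20% of the length from an end in replicates 2, 3 and 4.

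Marks were not spread evenly along the domains. From the outer 10% at each end to the central part, H3K4me1 rose from 8.84% to 15.6% in replicate 1, from 14.1% to 22.9% in replicate 2, from 31.8% to 49.3% in replicate 3 and from 40.5% to 56.1% in replicate 4. H3K27ac left under MLL rose in the same way, from 18.1% to 31.0% in replicate 1 and from 13.3% to 22.0% in replicate 2. H3K4me3 went the other way in replicate 4, with 14.2% at 10 to 20% of the length from an end and 8.57% at the centre, and replicates 2 and 3 had the same shape. H3K79me2 continued past the ends. In the 5 kb outside them it covered 28.9%, 34.8%, 37.2% and 35.1% in replicates 1 to 4. H3K4me1 there was 3.06%, 4.82%, 11.3% and 14.9%. These positions are descriptions, since the ends were set by the RAS H3K27ac lists.

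H3K27me3 covered little of the long domains in all 4 lists, and H3K9me3 covered little in 3 of its 4. H3K27me3 covered 0.0487%, 0.0463%, 0.305% and 0.00760% in replicates 1 to 4, against 0.0850%, 0.165%, 1.18% and 0.165% in shorter regions. It was lower in long domains in 4 of 4 libraries, with a mean difference of -0.296 points (exact sign-flip p 0.125, adjusted 0.156), and of -0.104 points without replicate 3. A peak in at least 1 list was found in 23 domains (3.83%, against 3.02% of all regions), which is close to the background, and no domain had it in all 4 (0 of 601, against 0.0845%). The share was higher in both RAS lists in 1 domain (against 0.446% of all regions) and lower in 1 (against 0.0346%). The domain with most H3K27me3 was chr11:98207510-98228609, at 0%, 6.18%, 27.7% and 1.27% in replicates 1 to 4, with H3K4me3 at 15.9%, 19.2% and 28.4% in replicates 2 to 4.

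H3K9me3 covered 0.0375%, 0.0181% and 0.0114% of the long domains in replicates 1 to 3 but 3.92% in replicate 4. In replicates 1 to 3 together, 8 domains held a peak (1.33%, against 0.250% of all regions and 0.739% of those of 10 to 15 kb). Replicate 4 alone had peaks in 383 (63.7%, against 8.64% and 39.0%), and its touched share rose with region length. Of the list's own bases, 9.13% lay in long domains, against at most 0.0892% for the other 3 H3K9me3 lists. The bases of replicate 4 in the domains were covered to 94.3% by H3K4me1 and to 76.3% by H3K79me2 of the same replicate number, which cover 50.8% and 46.5% of the domains. H3K4me3 of that number covered 6.45% of them, against 11.1% of the domains. Its peaks there scored low: 0.873% of them were in the top 10% of their list. The domain with most was chr8:119878813-119897710, at 42.9% in replicate 4 and 0% in the others, where H3K4me1 replicate 4 covered 98.3%. Over 4 libraries, the long-minus-shorter difference was 0.641 ± 1.28 points (SD, exact sign-flip p 0.5, adjusted 0.5), and without replicate 4 it was 0.000174, so this mean rested on that library. RAS minus MLL was 1.94 points in long domains with replicate 4 (exact permutation p 1, adjusted 1) and -0.0164 without it. The share was higher in both RAS lists in 2 domains (against 0.0346% of all regions) and lower in 1 (against 0.0231%).

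**Figure D5:**
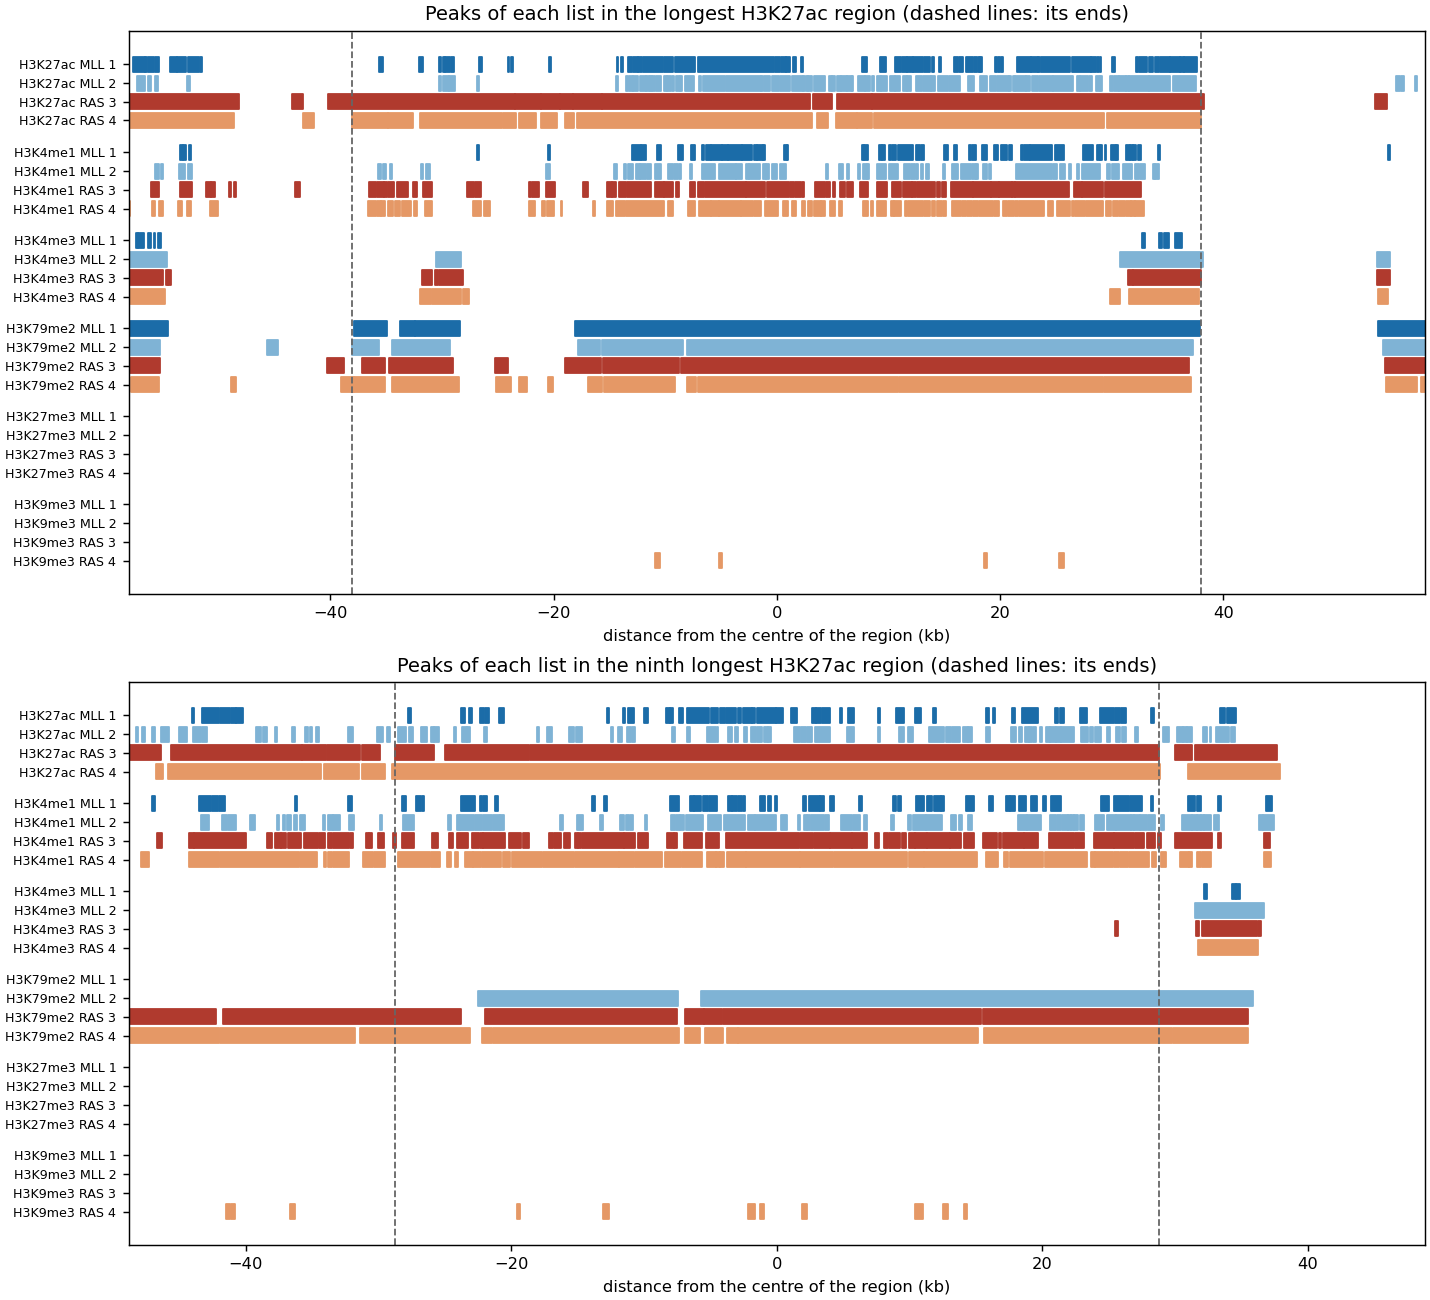
Peaks of each list (rows) in the longest and the ninth longest domain, drawn as bars by distance from the centre of the domain in kb (x axis). H3K79me2 spans much of the longest domain in all 4 lists, whereas MLL replicate 1 has no H3K79me2 bar in the ninth longest.

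The longest domain, chr2:152581592-152657674 (76083 bp), joined 16 blocks. H3K27ac peaks of MLL replicates 1 and 2 covered 47.2% and 56.4% of its bases, more than in most domains. H3K4me1 covered 28.6%, 36.5%, 61.7% and 56.1% in replicates 1 to 4. H3K79me2 lay between 81.7% and 84.8% in all 4 lists, and H3K4me3 covered 2.20% in replicate 1 and between 12.52% and 15.1% in the others.

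The next in length lay on chromosome 8. At chr8:11307007-11377227 (70221 bp), H3K27ac was left at 27.4% and 43.7%, H3K4me1 went from 30.01% and 37.0% under MLL to 59.1% and 79.04% under RAS, and H3K79me2 was 0%, 7.77%, 31.8% and 60.8% in replicates 1 to 4. RAS values were higher for H3K4me1 and H3K79me2, with no overlap between the pairs. At chr8:129344411-129412492 (68082 bp), H3K79me2 was 11.5% in replicate 1 and had no peak in the other lists, H3K4me3 had none in any list, and H3K27ac was left at 57.6% and 18.4%.

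A similar difference between the MLL replicates was seen at chr11:86381820-86444048 (62229 bp; H3K27ac left at 56.1% and 20.6%) and chr12:70545806-70607613 (61808 bp; 58.2% and 15.2%). The latter was a single unbroken block of 61808 bp in both RAS lists. Its H3K4me1 share was 4.82%, 8.43%, 35.7% and 51.5% in replicates 1 to 4. At chr6:72209366-72268838 (59473 bp), H3K27ac was left at 50.1% and 22.8% although H3K4me1 was only 1.09% and 2.76% under MLL and 11.6% and 35.1% under RAS. These domains held much H3K27ac in MLL replicate 1 with little H3K4me1 beside it.

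In 3 of the 10 longest domains, H3K79me2 was missing or nearly so in MLL replicate 1 alone. It was 3.57%, 91.4%, 87.7% and 86.3% in replicates 1 to 4 at chr18:60868560-60927168 (58609 bp). At chr6:31009548-31068021 (58474 bp) it was 0%, 90.3%, 81.2% and 82.8%. At chr4:45479380-45536926 (57547 bp) it was 0%, 86.2%, 95.4% and 95.6%. All 3 kept H3K27ac in replicate 1, at 44.2%, 25.8% and 33.0%, and H3K4me1 at 32.5%, 31.3% and 31.0%. The tenth, chr18:60777104-60833426 (56323 bp), lay on the same chromosome as the seventh, and there H3K79me2 was highest in replicate 1, at 70.4% against 43.2%, 44.7% and 38.0%.

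Near the threshold, the 3 shortest domains were chr6:128065107-128080134 (15028 bp), chr17:31988415-32003439 (15025 bp) and chr6:135262595-135277612 (15018 bp). Their H3K27ac left was 40.7%, 47.3% and 21.0% in MLL replicate 1 and 35.0%, 17.5% and 0% in replicate 2. The 3 longest regions outside were chr3:95115250-95130245 (14996 bp), chr5:114818275-114833257 (14983 bp) and chr7:6094841-6109810 (14970 bp), with 23.6%, 46.1% and 19.8% in replicate 1 and 20.9%, 31.8% and 49.1% in replicate 2. The values inside and outside the threshold overlapped.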

How the data were processed

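The deposited files are 24 peak lists, 1 per antibody library, with a position and a score per peak. Per the submitters' processing notes, CASAVA 1.7, Bowtie, MACS and deepTools were used with mm9. MACS settings are not given in the sources used here. The score deposited by the authors starts at 50 in every list. Here it served to order peaks inside their own list and to set a stricter cut. No depth, count interval or floor could be given.

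Members and alternatives were chosen with earlier results of these data known. Covered shares were computed over pooled bases with Python 3.11.15, NumPy 2.4.6 and pandas 2.3.3, and interval steps were tested on simulated data. Long and shorter regions were compared within libraries, since both classes come from the same list, by exact sign-flip tests, and RAS and MLL by exact permutation of 6 splits, each adjusted over 5 marks. No label says that libraries came from separate animals, so differences between libraries may be technical. A sign-flip p of 0.125 says only that the 4 differences share a sign. A permutation p of 0.33 says only that the 2 pairs do not overlap. Named domains were the 10 longest, the 5 with most and 5 with least H3K27ac left, the domains with most H3K27me3 and H3K9me3, and 3 on each side of the threshold. Planned gene lists were not used, because no mm9 annotation was at hand, and no sequence is printed for the same reason.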

Additional observations from a re-analysis of the deposited data

Results flagged for a closer look

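In 20 groups of 4 libraries (covered share, share of domains touched, long minus shorter, and centre minus edge, for 5 marks), 10 had a highest or lowest library whose gap to the nearest other exceeded the 95% limit of Dixon's test. Chance gives about 1 in 20, and the 10 come from 3 libraries.

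H3K9me3 replicate 4 covered 3.92% of the long domains, against 0.0114% to 0.0375% in the other lists. It touched 63.7% of them against 0.666% to 0.998%, differed by 2.57 points between long and shorter regions against -0.00435 to 0.00782, and by 1.30 points between centre and edge against -0.0452 to 0.0221.

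H3K4me3 replicate 1 covered 0.867% of the domains against 9.74% to 11.1%, touched 26.8% against 54.7% to 60.2%, and had a long-minus-shorter difference of -1.56 points against -15.9 to -13.9.

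H3K27me3 replicate 3 covered 0.305% of the domains against 0.00760% to 0.0487%. Its long-minus-shorter difference was -0.872 points against -0.157 to -0.0364, and its centre-minus-edge difference was -0.429 points against -0.0686 to -0.0254.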

How the results depend on the processing

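The number of long domains depended on the construction. It was 1413 with a threshold of 10 kb, 301 with 20 kb, 262 with no gap closed, 1114 with gaps of 3 kb closed and 3099 with the wider super-enhancer stitching distance. It was 1270 for bases in at least 1 RAS list and 987 without H3K27ac replicate 3 (846 without replicate 4). Domains with H3K27ac in both MLL lists numbered 1113, 276, 243, 932 and 2312 under the first 5 of these settings, in that order, 1014 for bases in at least 1 RAS list, and 286 with 10% coverage required.

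The H3K27ac left under MLL was 10.02% with that wider distance, 35.2% with peaks joined over 1 kb and 16.8% for bases in at least 1 RAS list. Its gain over shorter regions was 8.12 and 11.3 points with 10 and 20 kb, 14.8 with no gap closed, 6.29 with gaps of 3 kb closed and 0.350 with the wider distance. It was 8.24 after dropping peaks under the median score, 9.18 with equal numbers of best-scored peaks, 15.97 with joined peaks, and 8.32 against shorter regions of at least 5 kb. It was 8.23 for bases in at least 1 RAS list and 7.54 without H3K27ac replicate 3. Leaving out an MLL library gave 18.7% to 27.7% left and a gain of 9.71 to 10.8 points.

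The signs of long minus shorter held for the 5 other marks under all settings run, from 2.84 to 14.5 points for H3K4me1, 8.32 to 16.7 for H3K79me2, -14.7 to -3.84 for H3K4me3, -0.610 to -0.104 for H3K27me3 and 0.000174 to 0.866 for H3K9me3. The smallest differences for H3K4me1 came with the wider distance and for H3K4me3 against shorter regions of at least 5 kb. RAS minus MLL was 15.6 to 34.5 points for H3K4me1, 0.883 to 7.76 for H3K79me2 and 0.572 to 9.53 for H3K4me3, and its change from shorter to long regions was 3.62 to 13.9 for H3K4me1 and 4.61 to 10.1 for H3K79me2. Signs reversed only when 1 library was left out. RAS minus MLL was then -0.0399 to 0.277 points for H3K27me3 and -0.0164 to 3.89 for H3K9me3. The RAS-minus-MLL change of the long-minus-shorter difference was -12.6 to 1.72 for H3K4me3 and -0.00469 to 2.56 for H3K9me3. Long minus shorter is a replicate block by construction. With no replicate block, as 4 values against 4, the differences stay at 11.1 points for H3K4me1, -11.4 for H3K4me3, 14.6 for H3K79me2, -0.296 for H3K27me3 and 0.641 for H3K9me3. Their adjusted exact permutation p ranged from 0.143 to 0.714. RAS and MLL lists share no replicate number. Unknown depth and unequal peak width limit all comparisons between lists. Some alternatives were added after the data were seen: all those of the RAS-minus-MLL change of the long-minus-shorter difference, those of the count in both MLL lists except 10% coverage, at least 1 or a single RAS list except for the number of domains, the 5 kb minimum for H3K27ac, and means over regions for RAS minus MLL and H3K27ac left.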
